A study of Mus musculus with 12 samples.

Results

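The genes described here are 7 genes of muscle formation, chosen by symbol from the 24539 genes that the authors' table of soleus RNA lists. They are the myogenic transcription factors Myod1, Myog and Myf6, the fusion protein gene Mymk, the adhesion molecule gene Ncam1, and the developmental myosin heavy chains Myh3 and Myh8. All 7 passed the filter on low counts that left 13886 tested genes; 6 are listed under their own symbol, and Mymk under its older name Tmem8c. The soleus is a calf muscle rich in slow fibres. RNA came from C57BL/6 mice on a chow diet in 4 groups of 3 libraries. Wild type (WT) mice carried floxed Dnmt3a, and knockout (KO) mice are labelled MCK-Dnmt3a KO. MCK usually stands for muscle creatine kinase, whose promoter drives deletion in differentiated striated muscle and not in satellite cells, nerve or blood. Each genotype was sampled sedentary or after exercise. Age, sex, exercise protocol and hour of dissection were not given in the sources used here. Libraries of a group are called a, b and c, and KO exercise a and WT exercise a each carry 2 animal numbers in their column names, and the sources used here do not say whether animals were pooled for them.

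Skeletal muscle forms when myoblasts committed by MyoD family factors leave the cell cycle, fuse and build sarcomeres. MyoD and myogenin are basic helix-loop-helix proteins that bind E-boxes in muscle genes, and Myf6 (MRF4) is the family member that stays high in adult fibres. Embryonic and perinatal myosins are replaced by adult slow and fast myosins after birth, and together with Ncam1, Myog and Mymk they are known to return in regenerating fibres. Ncam1, Myog and Myod1 are also known to increase in denervated muscle.

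Total counts were 13329547 to 15480960 per library. The targeted gene, Dnmt3a, stood at 113 to 180 CPM (the count over the TMM-scaled library size) in the WT libraries and at 48.6 to 60.5 CPM in the KO libraries, without overlap. Markers of muscle fibres were abundant throughout, with Acta1, the skeletal actin, at 34303 to 54971 CPM. Libraries of the same group stood apart in some genes. Dbp, an output gene of the circadian clock, was at 136 to 266 CPM in KO exercise a, KO sedentary a, WT exercise a, WT sedentary b and WT sedentary c, and at 18.3 to 25.8 CPM in the other 7 libraries. Alb, a liver transcript, passed 100 CPM in KO sedentary b, WT exercise b and WT exercise c. Its level also differed between groups. In sedentary mice it was at 9.42 to 329 CPM in KO and 0.435 to 2.28 CPM in WT libraries. After exercise it was at 0 to 6.04 CPM in KO and 0.402 to 227 CPM in WT libraries. Of 6 liver genes, 6 had a positive log2 difference between KO and WT in sedentary mice (median 6.07) and 0 after exercise (median −5.00). None was called by edgeR in either comparison. In bulk tissue, fewer cells of a type and less RNA per cell cannot be told apart.

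Per length, Myf6 was by far the highest of the 7 genes. As CPM per kilobase of the longest coding transcript, its level was 79.9 ± 14.8 (SD over 12 libraries), and its lowest library, 57.2, lay above the highest library of every other member. Myod1 followed with 14.3 ± 4.25, Ncam1 with 9.43 ± 3.23, Myh3 with 9.33 ± 7.87 and Myog with 9.24 ± 2.07 on the same scale. The ranges of these 4 overlapped, as did those of Myh8 (2.76 ± 2.52) and Mymk (1.54 ± 0.682), the lowest. The biological coefficient of variation after group means were fitted was 61.7% for Myh3 and 53.3% for Myh8, higher than in 98.4% and 97.7% of tested genes. It was 32.3% for Mymk, 28.1% for Ncam1, 26.1% for Myod1, 20.1% for Myog and 16.6% for Myf6.

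**Figure D1:**
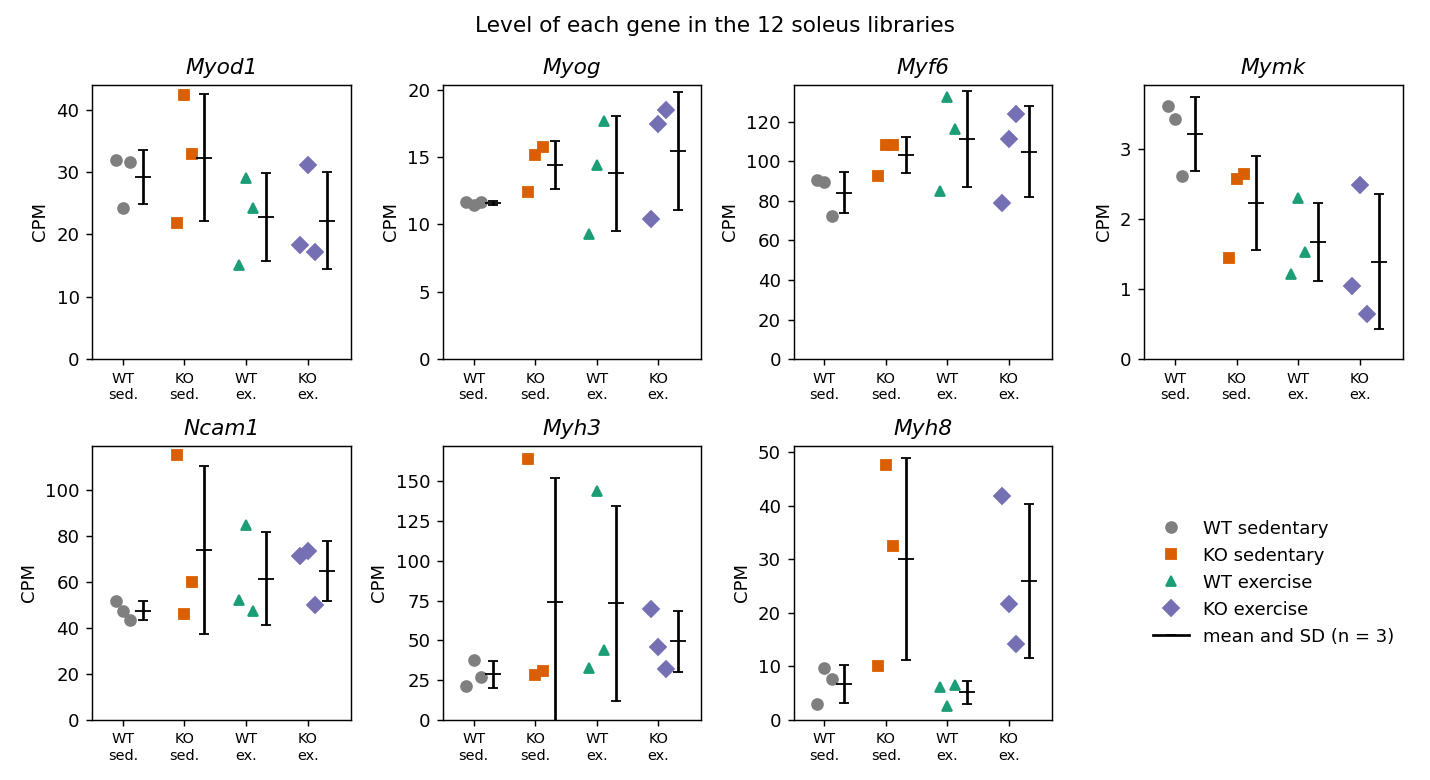
Level in CPM (linear axis) of each gene in the 12 libraries, with points for libraries by group and a bar for the mean and SD of 3 libraries; the lower end of the SD bar of Myh3 in sedentary KO muscle falls below 0 and is cut at the axis. All KO points of Myh8 lie above all WT points, and the means of Myh3 in sedentary KO and exercised WT muscle rest on 1 library each, at 164 and 144 CPM.

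Myh8, the perinatal myosin heavy chain, was the member that separated the genotypes. It had 2.86, 9.75 and 7.57 CPM in sedentary WT muscle and 9.995, 47.6 and 32.4 CPM in sedentary KO muscle. After exercise it had 6.20, 2.62 and 6.50 CPM in WT and 41.9, 21.7 and 14.2 CPM in KO muscle. Every KO library thus lay above every WT library, though the lowest KO library (KO sedentary a) and the highest WT library (WT sedentary b) were close. Of all tested genes, 0.223% lay without overlap in this direction over the 6 KO and 6 WT libraries.

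Averaged over both conditions, the mean of Myh8 was 5.92 ± 2.76 CPM in WT and 28.0 ± 15.2 CPM in KO muscle (SD, n = 6 each), a fitted fold of 4.78 (95% interval 2.28 to 10.03). The log2 difference was 2.26 (SE 0.477). With edgeR's quasi-likelihood test the unadjusted p was 0.000907, rank 33 of the tested genes, and the adjusted p of 0.375 missed the threshold of 0.05. Of all tested genes, 0.0576% were called in this comparison by edgeR. The call depended on the tool: DESeq2 called Myh8 (log2 2.25, adjusted p = 0.00268), and limma-voom did not (log2 2.20, adjusted p = 0.511). The size depended little on any single library, with a log2 difference of 1.99 to 2.46 when each of the 12 was left out.

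In each condition alone the KO libraries of Myh8 lay above the WT libraries, which holds for 5.51% of tested genes in sedentary and 3.67% in exercised mice. The difference was 2.16 on the log2 scale (SE 0.662, unadjusted p = 0.00908, edgeR adjusted p = 0.986) in sedentary and 2.35 (SE 0.686, unadjusted p = 0.00685, edgeR adjusted p = 1) in exercised mice. The interaction of genotype and exercise was 0.19 (SE 0.936), with a 95% interval on the fold from 0.267 to 4.91, so that a difference of several fold between the conditions was not detectable with 3 libraries a group.

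Myh3, the embryonic myosin heavy chain, showed no such separation. It had 21.1, 37.7 and 27.0 CPM in sedentary WT muscle and 164, 27.9 and 30.4 CPM in sedentary KO muscle. After exercise it had 32.3, 144 and 43.8 CPM in WT and 70.0, 46.1 and 31.7 CPM in KO muscle. The 2 highest libraries, KO sedentary a and WT exercise b, belonged to opposite genotypes and opposite conditions, and all groups overlapped.

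The folds of Myh3 between genotypes turned on those libraries. KO against WT in sedentary mice gave a log2 difference of 1.38 (SE 0.778, edgeR adjusted p = 0.986), which became 0.02 without KO sedentary a. After exercise it gave −0.58 (SE 0.762, edgeR adjusted p = 1), which became 0.37 without WT exercise b. The interaction, −1.95 (SE 1.09, unadjusted p = 0.104), became 0.35 without both. Averaged over conditions, KO against WT stood at 0.40 (SE 0.541), with an interval on the fold from 0.570 to 3.06.

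Ncam1, which encodes the neural cell adhesion molecule of synapses, satellite cells and immature fibres, was high in the same pair of libraries. It had 51.6, 47.4 and 43.5 CPM in sedentary WT, 115, 46.0 and 60.0 in sedentary KO, 52.2, 84.6 and 47.4 in exercised WT and 71.4, 73.4 and 49.9 in exercised KO muscle. The highest values again came from KO sedentary a and WT exercise b, and all groups overlapped. Averaged over conditions, KO against WT gave a log2 difference of 0.36 (SE 0.235, unadjusted p = 0.16, edgeR adjusted p = 1), and 0.12 without KO sedentary a.

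Over the 12 libraries, Ncam1 and Myh3 moved together (Pearson r = 0.88, Spearman rho = 0.72, on log2 CPM), also around their group means (r = 0.90). Without the 2 libraries farthest from the median, r was 0.63, so much of the relation rested on them. Myh3 and Myh8 did not move together (r = −0.14, rho = −0.01, and −0.46 around group means). The library with the most Myh3 had the least Myh8 of all KO libraries, and WT exercise b, with 144 CPM of Myh3, had the lowest Myh8 of all 12 at 2.62 CPM. These values describe 12 libraries that share groups and carry no test.

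The genes most like Myh3 across libraries were Myl4, the embryonic and atrial myosin light chain (r = 0.96), Uck2, a uridine-cytidine kinase (r = 0.96), and Uchl1, a ubiquitin hydrolase abundant in neurons (r = 0.94). Uchl1 was also the gene most like Ncam1 (r = 0.96), followed by Eme2 (r = 0.92) and Slc24a2 (r = 0.92). Myl4 stood at 40.5 CPM in KO sedentary a and 31.4 CPM in WT exercise b, and at 8.76 to 14.6 CPM in the other 10 libraries. Uchl1 stood at 97.4 and 89.7 CPM in that pair of libraries.

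Schwann, satellite and lymphoid cell markers did not single out the pair. The summed level of 8 Schwann cell markers was 131 CPM in KO sedentary a and 121 CPM in WT exercise b, within the 116 to 196 CPM of most libraries; it was 820 CPM in KO sedentary b, 723 in WT sedentary a and 386 in KO exercise c, where Ncam1 stood at 46.0, 51.6 and 49.9 CPM. Of 8 satellite cell markers the sums were 272 and 360 CPM in the pair, against 253 to 437 CPM over all libraries. Itga7 (129 to 181 CPM) and Sdc4 (36.3 to 225 CPM) weigh most in that sum, which says little about the scarcer markers. Pax7 was at 8.99 CPM in KO sedentary a and 5.04 CPM in WT exercise b, against 4.59 to 9.71 CPM over all libraries. Markers of natural killer and T cells summed to at most 1.09 CPM in any library, and Ncr1 was at 0 in 11 libraries. The sum of 6 macrophage markers was 128 and 105 CPM in the pair, against 56.9 to 417 CPM over all libraries, and that of 6 liver genes 31.2 and 278 CPM, against 3.04 to 421 CPM. The part of these cells in the result was not tested. Runx1, of the denervation genes listed below, was highest in the pair, at 15.0 CPM in KO sedentary a and 10.3 CPM in WT exercise b. Elsewhere Runx1 was at 4.36 to 9.22 CPM. Musk, of the same list, was at 13.8 and 20.1 CPM in the pair, against 11.6 to 52.7 CPM over all libraries. Whether denervation had a part was not tested. The exons of Ncam1 overlap those of Gm11149 on the other strand, and the sources used here do not say whether counting used strand.

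**Figure D2:**
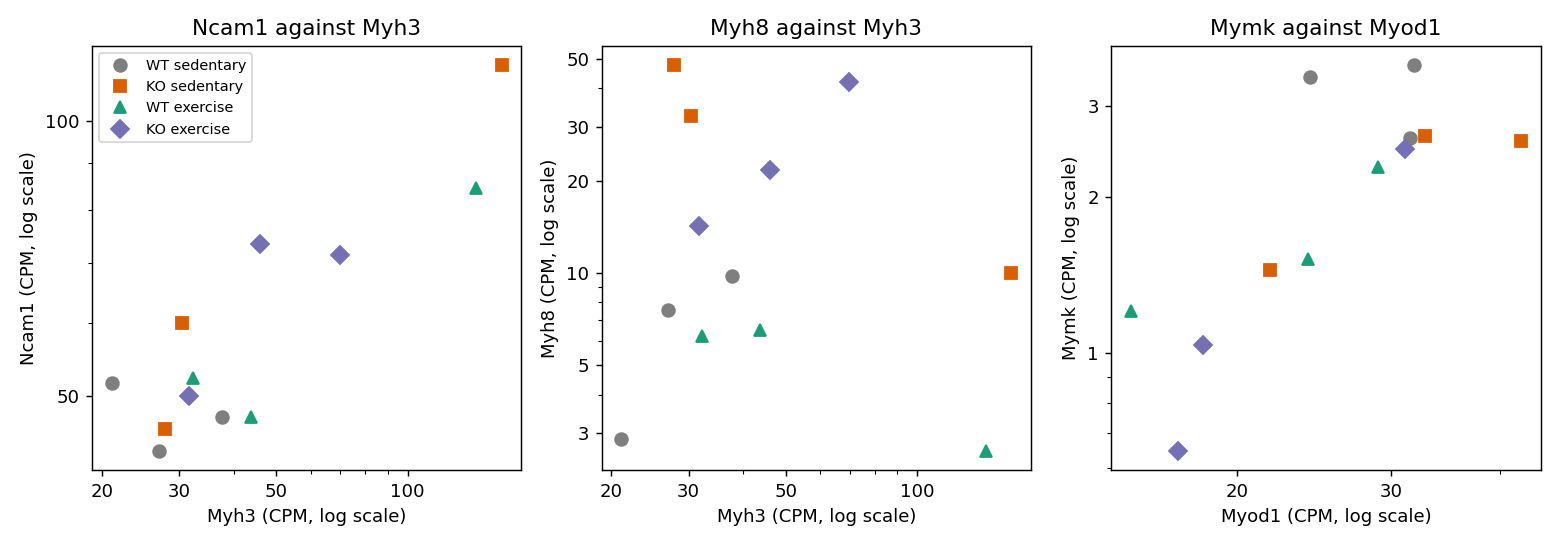
CPM of 1 gene against another in the 12 libraries, both axes logarithmic, with points by group. Ncam1 and Myh3 share their highest libraries, the KO points lie above the WT points for Myh8 whatever the level of Myh3, and Mymk and Myod1 are low in the same libraries (r = 0.80).

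Myh3 and Myh8 lie in the cluster of fast and developmental myosin genes on chromosome 11, all on the plus strand, in the order Myh3, Myh2, Myh1, Myh4, Myh8 and Myh13 (GENCODE M21, GRCm38). Myh3 spans 67078300 to 67102291, and Myh8, whose start is 198.8 kb downstream of that of Myh3, spans 67277124 to 67308634. The promoters of Myh3 and Myh8 are shown as a description, and their part in the difference between genotypes was not tested. Each runs from 250 bases before to 50 bases after the gene start (RefSeq, GRCm38.p6, plus strand), Myh3 at chr11:67078050-67078349 and Myh8 at chr11:67276874-67277173, with E-boxes (CANNTG, either strand) in capitals.
Myh3: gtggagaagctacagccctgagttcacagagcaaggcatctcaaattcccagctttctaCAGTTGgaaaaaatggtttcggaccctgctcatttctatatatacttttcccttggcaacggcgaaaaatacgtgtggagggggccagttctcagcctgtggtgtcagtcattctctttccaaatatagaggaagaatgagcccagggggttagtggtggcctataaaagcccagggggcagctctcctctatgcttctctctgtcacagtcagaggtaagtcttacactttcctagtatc
Myh8: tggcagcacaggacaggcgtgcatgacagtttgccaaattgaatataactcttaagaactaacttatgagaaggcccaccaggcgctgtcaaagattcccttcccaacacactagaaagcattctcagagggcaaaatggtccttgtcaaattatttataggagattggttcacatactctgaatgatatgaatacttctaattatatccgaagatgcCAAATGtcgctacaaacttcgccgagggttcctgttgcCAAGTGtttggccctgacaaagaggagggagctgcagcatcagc

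The Myh3 window holds 1 E-box and a TATAAA at −29 to −24 from the gene start. The Myh8 window holds 2 E-boxes, at −32 to −27 and at 7 to 12, and a MEF2 site at −99 to −90 that overlaps a TATAAA on the other strand. Of 32841 promoter windows of the same length, 72.3% hold an E-box, 3.2% a MEF2 site and 13.6% a TATAAA on either strand. CpG, the dinucleotide that Dnmt3a methylates, occurs 4 times in the Myh3 window and 6 times in the Myh8 window, against a median of 7 over all windows. Methylation was not measured in these libraries, and a match in letters is a description of the window.

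Both developmental myosins were a small part of the myosin pool. Of the summed CPM per kilobase of 9 sarcomeric myosin heavy chain genes, Myh8 took 0.0121% (WT exercise b) to 0.183% (KO sedentary b) and Myh3 took 0.101% to 0.828%. The ratio of Myh3 to Myh8 per length ran from 0.597 in KO sedentary b to 55.9 in WT exercise b. Of 6 adult myosin genes, edgeR called 0 in any of the 7 contrasts, and in averaged KO against WT 0 had an unadjusted p under 0.05.

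Myh4, the fastest adult myosin, stood at 5505 CPM in KO sedentary b, the library with the most Myh8, and at 33.8 to 1741 CPM elsewhere. The Myh8 transcript shares 6.61% of its 100-base windows and 21.4% of its 50-base windows exactly with other genes of the cluster, Myh4 among them, so reads of these stretches cannot be assigned to 1 gene. KO sedentary c had the third highest Myh8, 32.4 CPM, with 1275 CPM of Myh4. KO sedentary a had the least Myh8 of the KO libraries, 9.995 CPM, with 33.8 CPM of Myh4. KO exercise c had 14.2 CPM of Myh8 with 1741 CPM of Myh4. KO exercise a had the second highest Myh8, 41.9 CPM, with 566 CPM of Myh4. WT exercise b had 684 CPM of Myh4 and the lowest Myh8. The part of shared reads in the counts was not tested.

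**Figure D3:**
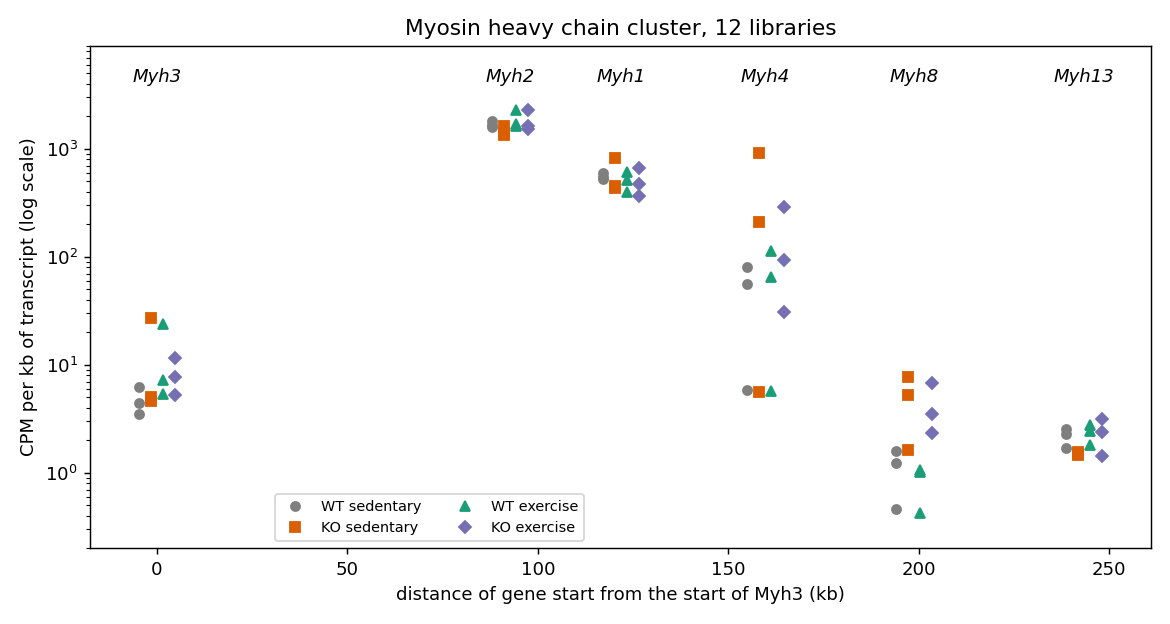
CPM per kilobase of transcript (logarithmic axis) of the 6 myosin heavy chain genes of the chromosome 11 cluster, placed by the distance of their starts from that of Myh3 in kb, with points for 12 libraries by group, offset sideways for legibility. Within the cluster, the KO points lie above all WT points for Myh8, while Myh4 spreads widely within each group.

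The genes most like Myh8 across libraries were Lingo3 (r = 0.91), H19, the imprinted non-coding RNA of embryonic muscle (r = 0.90), and Pcnx2 (r = 0.89). H19 stood at 3853 to 8891 CPM. These are descriptions over 12 libraries, and part of each r is the genotype difference that the genes share.

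Myf6, the most abundant of the factors, varied least. It had 90.6, 89.7 and 72.3 CPM in sedentary WT, 92.7, 108 and 109 in sedentary KO, 85.1, 133 and 116 in exercised WT and 79.2, 111 and 124 in exercised KO muscle. The sedentary groups did not overlap, KO being higher, which holds for 5.51% of tested genes, and the exercised groups overlapped. The log2 difference between KO and WT was 0.29 (SE 0.184, edgeR adjusted p = 0.986) in sedentary mice and 0.10 (SE 0.130, edgeR adjusted p = 1) averaged over conditions, where the interval on the fold was 0.882 to 1.31.

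Myog, which encodes the factor of terminal differentiation, had 11.7, 11.5 and 11.7 CPM in sedentary WT and 12.4, 15.1 and 15.7 CPM in sedentary KO muscle. After exercise it had 9.26, 14.4 and 17.7 CPM in WT and 10.4, 17.4 and 18.5 CPM in KO muscle. The sedentary groups again did not overlap, KO being higher, which holds for 5.51% of tested genes, and the exercised groups overlapped. The log2 difference between KO and WT was 0.31 (SE 0.237, edgeR adjusted p = 0.986) in sedentary mice and 0.24 (SE 0.167, edgeR adjusted p = 1) averaged over conditions. The genes most like Myog across libraries were Zdhhc5, a palmitoyltransferase gene (r = 0.92), Mif4gd (r = 0.92) and Foxk2, a forkhead factor gene (r = 0.91), and those most like Myf6 were Camk1g, a calcium-dependent kinase gene (r = 0.94), Acvr1, a BMP receptor gene (r = 0.91), and Stk16, a kinase gene (r = 0.90).

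Myog and Myf6 followed each other closely (r = 0.82, rho = 0.85, and 0.85 around group means), and both were low where Dbp was high. In every group, the libraries with Dbp above 100 CPM had the lowest Myf6 and the lowest Myog, though in sedentary WT muscle by little for Myog. Myf6 ran from 72.3 to 92.7 CPM in those 5 libraries and from 90.6 to 133 CPM in the other 7, and Myog from 9.26 to 12.4 and from 11.7 to 18.5 CPM. In a fit with a mean per group and log2 Dbp as a covariate, read after the data had been seen, Myf6 fell by 0.13 (SE 0.0244, edgeR adjusted p = 0.0208) and Myog fell by 0.16 (SE 0.0334, edgeR adjusted p = 0.0262) on the log2 scale for each log2 unit of Dbp. Of all tested genes, 2.22% were called in this fit. With log2 Dbp in the fit, the difference between KO and WT in sedentary mice went from 0.31 to 0.17 for Myog and from 0.29 to 0.19 for Myf6 (edgeR adjusted p = 0.992 for both), and averaged over conditions it went from 0.10 to 0.05 for Myf6; Dbp was above 100 CPM in 2 sedentary WT libraries and 1 sedentary KO library. Myod1 had a slope of −0.17 (SE 0.0546, edgeR adjusted p = 0.146), and the slopes of the other 4 members were not called.

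These slopes rest on the difference between 2 separate ranges of Dbp and were not tested within either. Without KO exercise a neither was called (Myf6 adjusted p = 0.202, Myog 0.219 with edgeR), nor without WT exercise a (0.111 and 0.13), the libraries with 2 animal numbers and the most Dbp. Neither was called without the 3 libraries high in Alb (0.135 and 0.174), and Myog was also lost without KO exercise b (0.0578), without WT exercise c (0.0511), or without both libraries with the most Myh3 (0.054). The slopes kept their sign under every alternative run, and lay between −0.14 and −0.11 for Myf6 and between −0.19 and −0.14 for Myog as each library was left out.

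Myod1, the factor of myoblast commitment, which is richer in fast than in slow fibres of adult muscle, did not separate the genotypes. It had 31.9, 24.2 and 31.5 CPM in sedentary WT, 21.8, 42.3 and 32.8 in sedentary KO, 15.1, 29.0 and 24.1 in exercised WT and 18.3, 31.1 and 17.1 in exercised KO muscle. All groups overlapped. Averaged over conditions the log2 difference between KO and WT was 0.05 (SE 0.218), with an interval on the fold from 0.742 to 1.45. Averaged over genotypes, exercise against sedentary gave −0.45 (SE 0.218, unadjusted p = 0.0657, edgeR adjusted p = 0.252), with 30.8 ± 7.23 CPM in sedentary and 22.5 ± 6.63 CPM in exercised muscle (SD, n = 6 each).

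Mymk, the membrane protein myomaker that myoblasts need to fuse, was the least abundant member. Its p was the smallest of the 7 for exercise averaged over genotypes, and in KO mice that of Myod1 was smaller (unadjusted p = 0.109, against 0.151 for Mymk with edgeR). It had 3.60, 3.42 and 2.61 CPM in sedentary WT, 1.45, 2.57 and 2.63 in sedentary KO, 1.21, 2.29 and 1.52 in exercised WT and 1.04, 2.48 and 0.647 in exercised KO muscle, from 9 to 58 counts a library. In WT mice every exercised library was below every sedentary one, which holds for 8.68% of tested genes, and in KO mice the groups overlapped.

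Averaged over genotypes, Mymk was at 2.72 ± 0.767 CPM in sedentary and 1.53 ± 0.723 CPM in exercised muscle (SD, n = 6 each), a fold of 0.577 (95% interval 0.368 to 0.905) and a log2 difference of −0.79 (SE 0.300, unadjusted p = 0.0207, edgeR adjusted p = 0.153). That comparison called 2.32% of tested genes, Mymk not among them. Without KO exercise b it was called, at −1.15 (edgeR adjusted p = 0.034). The log2 difference was −0.93 (SE 0.417) in WT and −0.66 (SE 0.431) in KO mice, and KO against WT averaged over conditions gave −0.40 (SE 0.300, edgeR adjusted p = 1). Mymk and Myod1 moved together across libraries (r = 0.80, rho = 0.81, and 0.82 around group means, 0.70 without the 2 libraries farthest from the median of Mymk). The genes most like Mymk were Nxpe4 (r = 0.95), Nrk, a kinase gene at 0 to 0.922 CPM (r = 0.94), and Camk4, a calcium-dependent kinase gene (r = 0.93), and those most like Myod1 were Coro1c, a coronin gene (r = 0.95), Elmo2 (r = 0.94) and Zfp608 (r = 0.93).

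Markers of several other cell types also had negative log2 differences with exercise. In averaged exercise against sedentary, 0 of 6 macrophage markers had a positive log2 difference (median −0.84, 5 at an unadjusted p under 0.05), 0 of 8 Schwann cell markers did (median −0.84, 1 at that p) and 0 of 5 tested markers of proliferating cells did (median −0.93, 1 at that p), and edgeR called 0 of them. The summed level of the macrophage markers was 82.0 to 134 CPM in sedentary WT, 128 to 417 in sedentary KO, 66.4 to 105 in exercised WT and 56.9 to 108 in exercised KO muscle. That of the Schwann cell markers was 123 to 723, 131 to 820, 121 to 176 and 116 to 386 CPM in the same order, and that of 6 markers of proliferating cells 15.7 to 29.0, 22.3 to 40.9, 5.63 to 34.1 and 6.08 to 21.6 CPM. Every one of the macrophage and Schwann cell markers was above 0 in all libraries, and of the proliferating cell markers Ccnb1 was at 0 in 3 libraries and Cdk1 in 1. Of 8 satellite cell markers, 4 had a positive log2 difference (median 0.03), and 3 had an unadjusted p under 0.05 by edgeR. Their summed level was 253 to 284 CPM in sedentary WT and 360 to 437 CPM in exercised WT muscle. In KO muscle it was 268 to 315 CPM sedentary and 319 to 381 CPM exercised. Itga7 and Sdc4 weigh most in that sum. Pax7 was at 7.21 to 9.71 CPM in sedentary and 4.59 to 6.71 CPM in exercised WT muscle. In KO muscle it was at 5.99 to 8.99 and 5.69 to 7.33 CPM. Of all tested genes, 50.1% had a positive log2 difference in this comparison and 22.8% an unadjusted p under 0.05 by edgeR. The part of these cells in the level of Mymk was not tested.

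**Figure D4:**
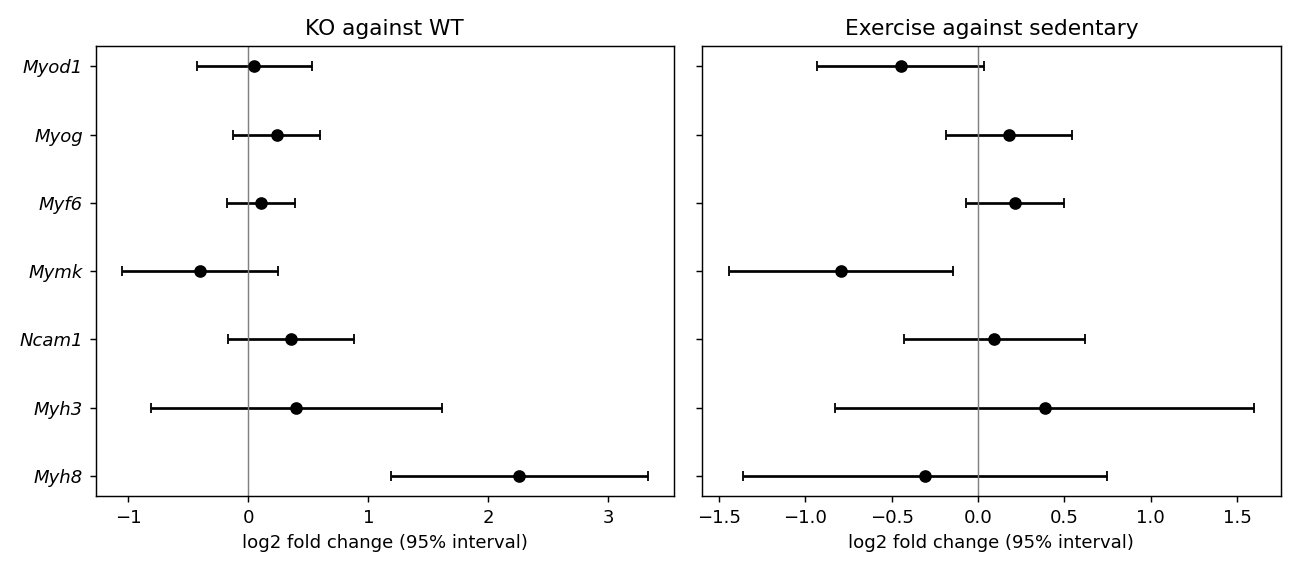
Log2 fold change of each gene with its 95% interval from edgeR's quasi-likelihood fit, KO against WT averaged over conditions on the left and exercise against sedentary averaged over genotypes on the right; the axes differ in range. Unadjusted intervals leave out 0 for Myh8 on the left (2.26) and for Mymk on the right (−0.79), and no gene passed after adjustment over all tested genes.

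In all, edgeR called 0 of the 7 members in each of the 7 contrasts. The shares of all tested genes called were 0.0288% for KO against WT in sedentary mice, 0.0216% for KO against WT after exercise, 0.0216% for exercise in WT, 0% for exercise in KO and 0% for the interaction. At an unadjusted p under 0.05, Myh8 stood alone among the members for KO against WT in sedentary mice, after exercise and averaged, where 4.83%, 3.38% and 4.5% of all tested genes passed. Mymk and Myf6 did so for exercise in WT (9.41% of all genes) and Mymk for averaged exercise (22.8%), while 0 members did for exercise in KO (17.9%) or the interaction (3.1%). DESeq2 called 1 member, Myh8 in averaged KO against WT, and limma-voom 0. With averaged KO against WT, 6 of 7 members had a positive log2 difference, with a median of 0.24, where 47.8% of all tested genes were positive and the median was −0.01. In sedentary mice 6 of 7 were positive (median 0.31), and after exercise 3 of 7 were (median −0.04), against 50.7% and 46.8% of all tested genes. The averaged difference of Myh3 became −0.28 without KO sedentary a, and that of Myod1 changed sign when KO exercise b, KO sedentary b, WT exercise a or WT sedentary b was left out (−0.11 to −0.01).

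Among genes that act with these members, few passed. Of 24 myogenic regulators and partners 23 were tested. In averaged KO against WT 0 were called by edgeR, 3 had an unadjusted p under 0.05 (4.5% of all tested genes did), and the median was 0.01. The smallest p belonged to Tead4, a DNA-binding partner of YAP in myoblasts, at 9.22 ± 1.92 CPM in WT and 14.6 ± 3.35 in KO mice (log2 0.66, edgeR adjusted p = 0.651). It was followed by Eya1, a transcriptional coactivator (−0.34, edgeR adjusted p = 0.833), and the cell cycle inhibitor gene Cdkn1c (−0.45). In averaged exercise against sedentary, 1 of the 23 was called and 8 had an unadjusted p under 0.05, where 2.32% and 22.8% of all tested genes did. The called gene was Rbm24, an RNA-binding splicing factor of muscle, which rose from 265 ± 32.5 to 351 ± 40.8 CPM (log2 0.40, SE 0.093, edgeR adjusted p = 0.046, SD with n = 6 each). It was at 223 to 302 CPM in the sedentary and 311 to 412 CPM in the exercised libraries. Leaving out any single library other than KO exercise b, KO sedentary c or WT exercise b ended that call (edgeR adjusted p = 0.0536 to 0.118), as did leaving out the 3 libraries high in Alb (0.0577).

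Of 12 fusion genes 10 were tested. In averaged KO against WT, 0 were called and 0 had an unadjusted p under 0.05 by edgeR, with a median of −0.08. In averaged exercise against sedentary 0 were called, 5 had an unadjusted p under 0.05, and the median was −0.15. Of all tested genes, 22.8% had such a p in the latter comparison. Of 8 developmental sarcomere genes other than the myosins 7 were tested and 0 were called in averaged KO against WT, with 0 at an unadjusted p under 0.05. Of the 7, 4 had a positive log2 difference in averaged KO against WT (median 0.18), 5 in sedentary mice (median 0.25) and 3 after exercise (median −0.25). Myl4, as given above, and Ankrd1 were both highest in KO sedentary a and WT exercise b. Ankrd1 had 19.2, 15.1 and 17.5 CPM in sedentary WT and 126, 29.3 and 21.7 CPM in sedentary KO muscle. After exercise it had 15.0, 120 and 23.0 CPM in WT and 25.1, 35.3 and 23.6 CPM in KO muscle. Actc1, the cardiac actin of fetal muscle, averaged 79.0 ± 11.8 CPM in WT and 89.1 ± 19.2 in KO mice (log2 0.18), Tnnt2, the cardiac troponin T of fetal muscle, 11.3 ± 1.93 and 12.8 ± 2.38 CPM (log2 0.18), and Csrp3, a LIM protein gene of the Z-disc, 499 ± 145 and 396 ± 119 CPM (log2 −0.36, unadjusted p = 0.0605, edgeR adjusted p = 1). Myl6b and Myh7b had log2 differences of −0.14 and −0.16.

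Of 11 acetylcholine receptor and denervation genes 10 were tested, 9 of them with a positive log2 difference in averaged KO against WT (median 0.22), and 1 was called. In sedentary mice 10 of 10 were positive (median 0.42) and 6 had an unadjusted p under 0.05, and after exercise 5 of 10 were positive (median 0.00144) and 2 had such a p, with 0 called by edgeR in either. Of all tested genes, 4.83% had such a p in sedentary mice and 3.38% after exercise. Macrophage and erythrocyte markers had mostly positive log2 differences between KO and WT in sedentary mice as well, with 5 of 6 (median 0.53) and 3 of 3 (median 1.07) positive, and after exercise with 2 of 6 (median −0.04) and 0 of 3 (median −0.25). So did liver genes (6 of 6, median 6.07), Schwann cell markers (8 of 8, median 0.13) and tested markers of proliferating cells (5 of 5, median 0.49). After exercise these stood at 0 of 6 (median −5.00), 6 of 8 (median 0.24) and 0 of 5 (median −0.76). Muscle fibre markers (2 of 5 positive, median −0.02) and satellite cell markers (3 of 8 positive, median −0.05) were mostly negative in sedentary mice. The summed erythrocyte markers were at 108 to 147 CPM in sedentary WT, 127 to 340 in sedentary KO, 105 to 174 in exercised WT and 105 to 130 in exercised KO muscle, and the part of these cells was not tested. Chrna1, which encodes the alpha subunit of the receptor at the endplate, rose in KO muscle (log2 0.63, edgeR adjusted p = 0.0358), with 77.1 to 97.6 CPM in the KO libraries and 42.6 to 68.6 CPM in the WT libraries. Leaving out any single library other than WT exercise b or WT sedentary a ended that call (edgeR adjusted p = 0.0524 to 0.108), as did leaving out the 3 libraries high in Alb (0.152) or both libraries with the most Myh3 (0.0551), with a log2 difference of 0.57 to 0.69 throughout. Sln, the sarcoplasmic reticulum peptide sarcolipin, stood at 100 ± 24.1 CPM in WT and 162 ± 29.2 in KO mice (log2 0.71, edgeR adjusted p = 0.293). Chrng, the fetal gamma subunit, was scarce, at 0.322 to 0.623 CPM in WT and 0.622 to 1.71 CPM in KO libraries (log2 0.91, edgeR adjusted p = 0.782), and Chrnd, the delta subunit, had a log2 difference of 0.22. The denervation genes Ncam1 and Myog, as given above, were not called in the same comparison.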

How the data were processed

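RNA of 12 soleus libraries was sequenced on a BGISEQ instrument from a BGI library kit, per the labels' protocols. STAR, featureCounts and the build mm10 appear in the submitters' processing notes. The authors deposited whole-number counts per gene and library; read length, annotation, versions and use of strand were not given in the sources used here. Another 12 columns, of library values on another scale, were left out. Count columns were assigned to groups by genotype and condition in their names; the animal numbers there match no label. P-values measure the spread between libraries, taken as 3 mice a group. Libraries of a group differed beyond sampling noise (chi-square per gene 8.73 to 51.9).

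Counts were filtered with filterByExpr (minimum count 10), scaled by TMM and tested with edgeR 4.0.16 (glmQLFit robust, glmQLFTest) in R 4.3.3, with 1 mean per group over all 12 libraries and Benjamini-Hochberg adjustment over the 13886 tested genes (threshold 0.05). There were 7 contrasts. Residual degrees of freedom were 8, so folds near those of the more variable members have wide intervals. The method was checked on simulated counts, for averaged KO against WT only, with the spread typical of genes at each level. That check does not cover the wider spread of Myh3 and Myh8 or the low level of Mymk. DESeq2 1.42.0, limma-voom (limma 3.58.1), other scalings, no filter, the compared groups alone, a Dbp covariate and left-out libraries were alternatives. Levels were compared between genes as CPM per kilobase of the longest coding transcript of GENCODE M21. Likeness is Pearson's r of log2 CPM (prior count 2).

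Named genes are the 7 members and Dnmt3a; up to 4 genes of each other list with the smallest p in averaged KO against WT, and any called; the 3 genes most like a member; and Dbp, Alb and Myh4. Fewer are named where a list showed little. Some list and marker genes, among them Pax7, Itga7, Sdc4, Ankrd1, Runx1 and Musk, are named for their levels. The result of 1 further gene is not reported here. Members and lists were chosen with earlier results of these data known.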

Additional observations from a re-analysis of the deposited data

How the results depend on the processing

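Of 28 member results given in the text, 6 changed sign under at least 1 alternative; all 6 were uncalled. Myh3 after exercise, KO against WT, ran from −0.93 to 0.37 as each library was left out, and was 0.61 without the libraries high in Alb and 0.37 without the 2 libraries with the most Myh3, an alternative added after seeing the data. Without those 2, Myh3 for exercise in KO became 0.76 (−0.98 to 0.76 by single libraries), its interaction 0.35, and the Myh8 interaction −0.54; the latter was −0.086 with a Dbp covariate and −0.33 to 0.70 by single libraries. Averaged KO against WT ran from −0.28 to 0.87 for Myh3 and from −0.11 to 0.16 for Myod1, which was −0.023 with the Dbp covariate. The cause was not tested beyond the libraries left out.

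Counts of genes called moved with the tool. In the order KO against WT sedentary, KO against WT exercise, exercise in WT, exercise in KO, interaction, averaged KO and averaged exercise, DESeq2 called 20, 9, 122, 359, 22, 33 and 1012 genes, where edgeR called 4, 3, 3, 0, 0, 8 and 322; at an unadjusted p under 0.05 edgeR had 2492 for exercise in KO and 430 for the interaction. DESeq2 called 1 member in averaged KO. limma-voom called 1 gene, not a member, for exercise in WT. Fits to the compared groups alone called 1 gene for KO against WT exercise, 5 genes for exercise in WT and 6 genes for exercise in KO. Without the libraries high in Alb, both single comparisons of genotype gave 2 and 1, exercise in WT gave 11, and averaged KO and averaged exercise gave 2 and 122. With the Dbp covariate, exercise in WT gave 0 and averaged exercise 802. Without the 2 libraries with the most Myh3, KO against WT exercise gave 1, exercise in WT 0, exercise in KO 3 and averaged KO 4. Leaving out single libraries gave 1 to 5, 1 to 4, 0 to 8, 0 to 4, 0 to 0, 4 to 10 and 45 to 697 genes, with 0 to 1 members in averaged exercise (Mymk, without KO exercise b) and 0 in the others. The Dbp slope called 308 genes and 2 members; by single libraries 63 to 389 and 0 to 3, without the libraries high in Alb 94 and 0, and 1 member without those with the most Myh3.

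No paired analysis was possible because the count columns carry no replicate number of the labels. The coefficients of variation of Myh3 (61.7%) and Myh8 (53.3%) and the 9 to 58 counts of Mymk limit the precision of their folds.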
